A study of Mus musculus with 4 samples.

Results

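Banding of the aorta was compared with sham operation in the left ventricle of mice that lack IL-18, on 1 array of pooled RNA a side. The difference is the log2 intensity of the banded array minus that of the sham array, with every intensity below 64 (log2 6, the floor) first raised to 64. Where a gene had several probe sets, the one brightest on average over all 4 arrays of the series (mean log2) stood for it. A gene entered if either IL-18 null array reached the floor. This gave 4827 genes of the 12393 with a probe set of their own. Of these, 4477 reached the floor on both. In the other 350 genes 1 array was below the floor, so their differences are bounds, written as "at least". The banded pool held the left ventricles of 6 IL-18 null mice on a C57BL/6 background, 1 week after transaortic constriction. The sham pool held those of 5 sham-operated IL-18 null mice, whose labels give no strain, age or time after surgery. Both pools share the IL-18 deletion. The other arrays, wild-type sham and wild-type banded, were pools of 5 to 6 hearts per the series design, with no banding time in their labels. Pooling leaves no spread between animals, so no difference below has an error between animals and none has a test.

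Banding narrows the aorta, and the left ventricle then has to pump against a higher pressure. The loaded ventricle thickens, turns on genes of fetal heart muscle, draws in leukocytes and lays down collagen. IL-18 is a cytokine of the IL-1 family that is released after cleavage by caspase-1, signals through a receptor and MYD88 to NF-kappa-B, and is best known for driving interferon gamma in lymphocytes. The series asks what part IL-18 has in gene expression during this overload.

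Il18 itself was 8.2 on the IL-18 null sham array and 8.4 on the banded array, against 9.1 and 7.4 on wild-type sham and banded. No array reached the floor, so the deleted gene does not check the genotype labels. The tissue label was checked on cardiomyocyte markers: all 16 were at or above the floor on both IL-18 null arrays, and their summed intensity was 296049 (sham) and 293389.6 (banded). The skeletal muscle (12 markers), adipocyte (6), mesothelial (6), B cell (7) and red cell (4) lists had no member at or above the floor on either IL-18 null array. Signal near the 3′ end exceeded signal in the middle of the Gapdh transcript by 2.73 (log2) on the sham and 1.66 on the banded IL-18 null array. Actb (4.69 and 4.57) and the transferrin receptor (0.2 and 0.16) had the same order with a much smaller gap. The excess was larger on the banded array for the controls dap (1.15 and 1.77), thr (3.89 and 4.94), phe (4.64 and 5.08) and lys (3.78 and 4.23). Middle signal (log2, sham and banded) was below the floor for thr (3.22 and 3.23), phe (2.85 and 2.85), lys (2.61 and 2.63) and the transferrin receptor (2.93 and 2.98). It was above the floor for Gapdh (10.66 and 11.92), Actb (6.46 and 6.77) and dap (7.92 and 7.88). For Gapdh the excess of 3′ over middle signal was 4.61 on wild-type sham and -0.16 on wild-type banded. The part of this excess in the differences below was not tested. Wild-type sham stood apart in other ways too. Correlations between arrays were taken over the 5158 genes that reached the floor on any array. Wild-type sham correlated at 0.703 with wild-type banded, 0.833 with IL-18 null sham and 0.824 with IL-18 null banded. The correlation of the IL-18 null pair was 0.938. Ckm, the muscle creatine kinase, was 92 on wild-type sham and between 7486 and 16531 on the other 3 arrays. Counts of genes that lay above or below both wild-type arrays are therefore also given against wild-type banded alone. The wild-type banding difference itself cannot be formed without wild-type sham.

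In the banded IL-18 null ventricle 337 genes (6.98% of the 4827) were at least 2-fold higher than in sham and 122 (2.53%) at least 2-fold lower, 459 (9.51%) in all. The median over all genes was 0.08, and the quartiles were -0.18 and 0.41. Of the 337 higher genes 61 were bounds, and of the 122 lower genes 14 were. Values just inside and outside the threshold show how gradual it is: Shisa5 was higher by 1.01, Uap1 by 0.99, Zbtb20 lower at -1.01 (0.39 at its other probe set) and Cxcl12, the chemokine that holds stem cells in their niche, at -0.99. Bright genes differed less, with 2.52% past 2-fold among genes of mean log2 intensity 12 to 16 and 9.78% among those from 6 to 8. The balance of the counts depended on scaling: with the 2 arrays centred on equal medians 254 genes were higher and 170 lower, after quantile normalization of the 4 arrays 262 and 153, and after cyclic loess 268 and 157.

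**Figure D1:**
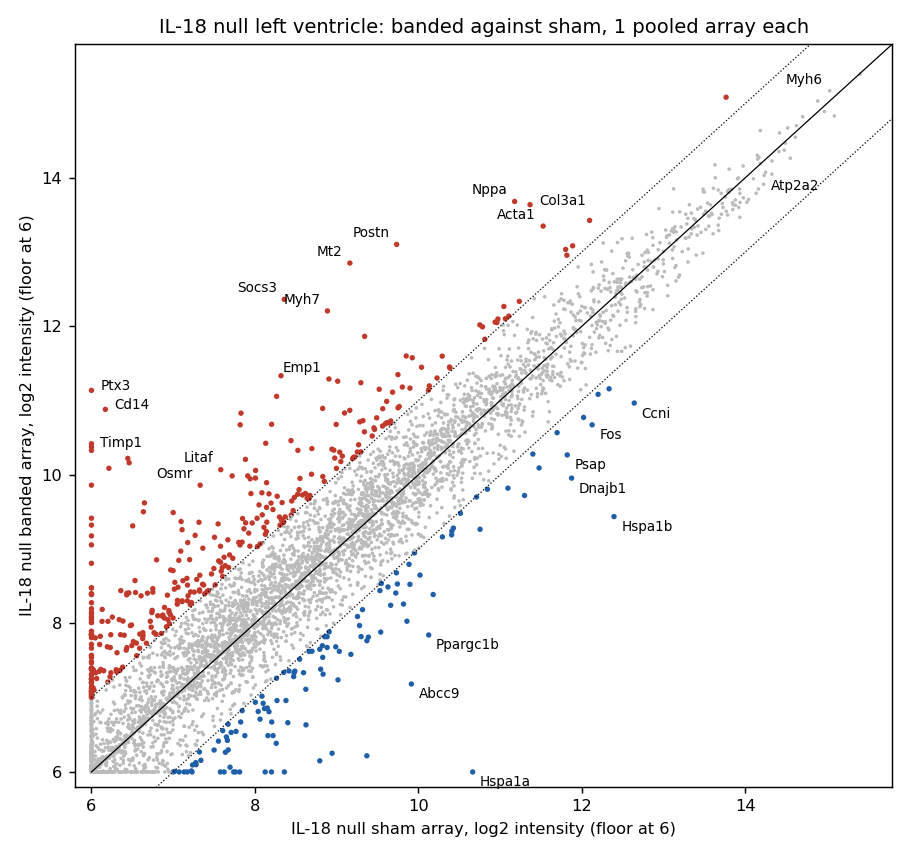
Each point is 1 of the 4827 genes, with log2 intensity on the IL-18 null sham array (x) and on the banded array (y), values below the floor set to 6. Dotted lines mark 2-fold, red points are the 337 higher and blue points the 122 lower genes. Ptx3 and Timp1 lie on the left edge, at the floor in sham, and Hspa1a lies on the bottom edge, at the floor in banded.

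The only error the arrays hold is the disagreement between probe sets of a gene. Over 1155 genes with several probe sets at or above the floor on both IL-18 null arrays, the SD of the difference between a gene's probe sets was 0.29 at the median and 0.50 when pooled. Of the 129 other measured probe sets of higher genes, 50 were also at least 2-fold higher, 58 were higher by less, 17 lay on the other side of 0 and 4 were at least 2-fold lower. Of the 53 other probe sets of lower genes, 14 were also at least 2-fold lower, 21 were lower by less and 18 lay on the other side of 0. Other probe sets are quoted below where they were measured and the gene matters.

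Gene groups stood at different heights. List counts below are to be read beside all 4827 genes, of which 6.98% were at least 2-fold higher and 2.53% lower. Of all genes 2964 lay above 0 and 1855 below. A gene with 1 array below the floor entered its list through the other array alone and could count on that side only. Matricellular proteins had a median of 1.44, fibrillar collagens and their cross-linking enzymes 1.37, prostaglandin, kinin and nitric oxide genes 1.15, NF-kappa-B and feedback genes 1.06 and basement membrane genes 1.01. At the other end were fatty acid uptake and oxidation at -0.31, ion channels at -0.31 and the PGC-1 group at -0.27. Contractile and calcium-handling genes (0.04), the respiratory chain (-0.02), glucose and glycogen genes (-0.02) and creatine and adenylate kinases (-0.03) were within 0.15 of the median of all genes.

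**Figure D2:**
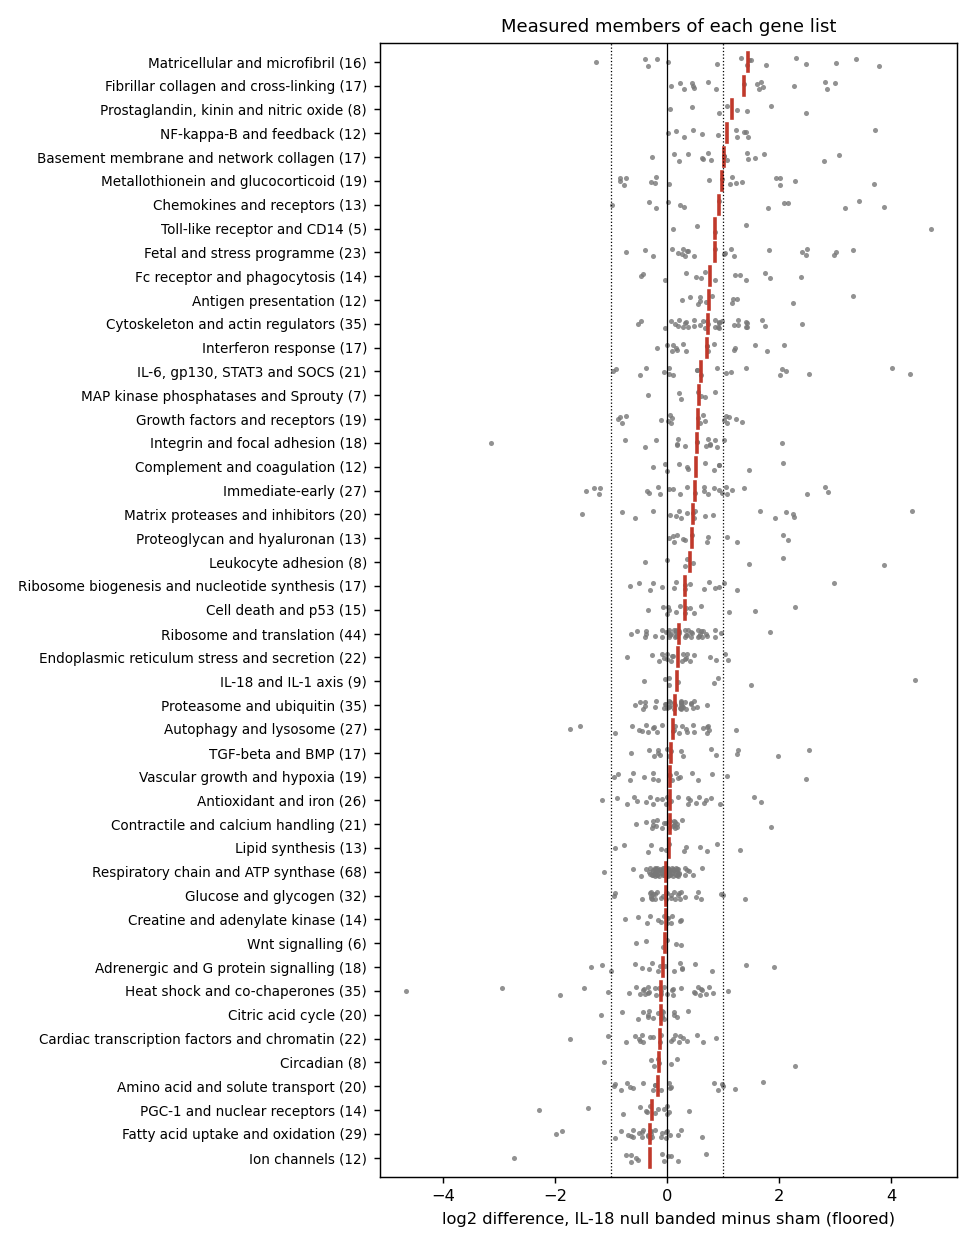
Each row is a gene list other than cell type markers, with 5 or more measured members (the number in brackets), each grey point 1 member's log2 difference between the banded and sham IL-18 null arrays, and the red bar the list's median. Matricellular genes are highest at 1.44, and fatty acid genes and ion channels are lowest at -0.31.

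Cytokine, pentraxin and chemokine genes differed between the arrays by some of the widest margins. Ptx3, the long pentraxin that marks microbes and dying cells for clearance, was 11.8 on the sham array and 2251 on the banded array, at least 35.2-fold higher. It was 16.5 and 12.1 on wild-type sham and banded, so only the banded IL-18 null array had signal above the floor. In whole tissue, here and below, more or fewer cells of a type and more or less RNA per cell cannot be told apart. Il1b, the precursor of IL-1 beta, went from 51.2 in sham to 1368.5 in banded (at least 21.4-fold). Il6, the cytokine of the acute phase, went from 7.6 to 1286 (at least 20.1-fold). Both were also below the floor on each wild-type array, Il1b at 60.1 and 26.3 and Il6 at 62.1 and 12.5.

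Chemokines gave the same picture for several ligands, with 6 of 13 measured members at least 2-fold higher, 0 lower and a median of 0.92. Over all 4827 genes 6.98% were at least 2-fold higher and 2.53% lower. Cxcl2, Ccl2, Ccl7, Ccl8 and Cxcl10 were below the floor in sham. They entered through the banded array alone and could not count as lower. Cxcl2, which draws neutrophils, was 6.1 in sham and 929.8 in banded (at least 14.5-fold). The monocyte attractants Ccl8 (22.6 to 579, at least 9.05-fold), Ccl2 (29.8 to 683, at least 10.7-fold) and Ccl7 (11 to 284, at least 4.44-fold) lie close together in the genome and were high together. Ccl9 was 247.5 in sham and 859.6 in banded (3.47-fold), with 439 and 348 on the wild-type arrays. Of the 6 higher chemokines 5 were at least 2-fold above both wild-type arrays on the banded IL-18 null array, and 6 above wild-type banded alone. The 5 were the same genes that entered through the banded array alone. Cxcl1, another neutrophil attractant, stayed under the threshold at 0.92 (533 to 1006). Cxcl12 was 1027.5 in sham and 516 in banded, but its other measured probe set differed by 0.81 the other way.

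**Figure D3:**
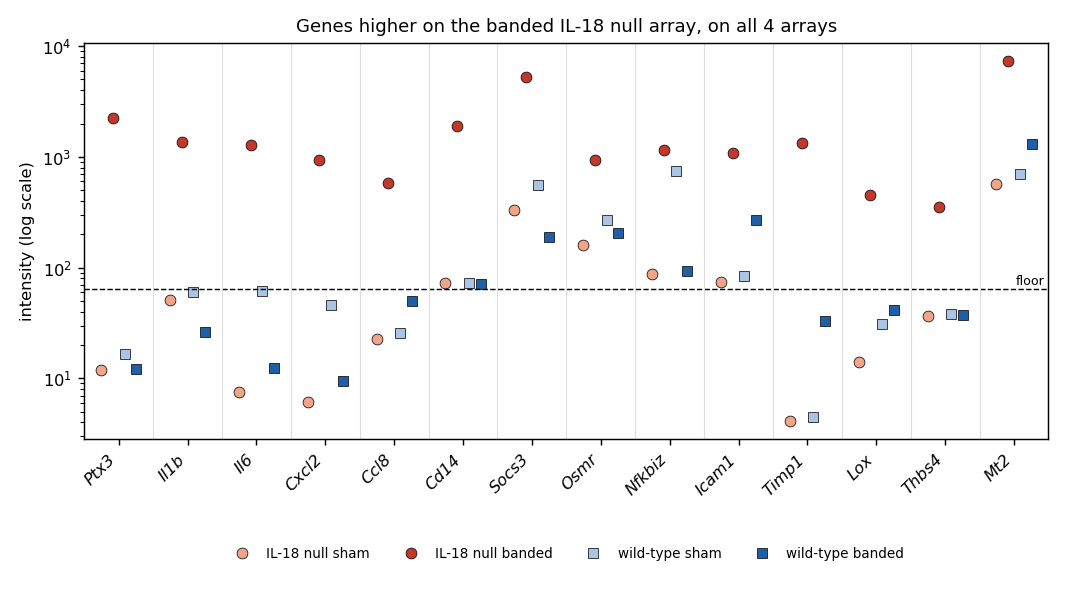
Intensity on a log axis for 14 genes on each of the 4 arrays (circles for IL-18 null, squares for wild type, dark for banded), with the floor of 64 as a dashed line. The dark red circle, banded IL-18 null, is the highest of the 4 for every gene shown, and for Ptx3, Il1b, Il6, Cxcl2, Ccl8, Timp1, Lox and Thbs4 it is the only one above the floor.

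Cd14, the co-receptor that hands bacterial lipid and other ligands to Toll-like receptors, had the largest difference among genes measured on both arrays, 72 in sham and 1886 in banded (26.2-fold). It was 73.3 and 71.9 on the wild-type arrays. Tlr4 itself was 50 and 68.4, near the floor, and Tyrobp, an adaptor of myeloid receptors, was 233 and 619 (2.65-fold). The adaptor Myd88, Tlr2 and the partner of Tlr4, Ly96, were below the floor on both arrays.

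The list of NF-kappa-B and feedback genes, which also holds the subunit Rela (0.62), had 6 of 12 measured members at least 2-fold higher, 0 lower and a median of 1.06. Nfkbiz, an atypical inhibitor that also helps to turn on Il6, was 88.1 in sham and 1145 in banded (13-fold). Nfkbia, the classical inhibitor, was 2114 and 4926 (2.33-fold), and its 3 other probe sets were higher by 1.31 to 2.20 (log2). Birc3 and Birc2, ubiquitin ligases downstream of the TNF receptor, were 144 and 389.6, and 99 and 235, on sham and banded. Tnip1, which helps the deubiquitinase A20, was 53 and 169 (at least 2.64-fold). On the wild-type arrays Nfkbiz was 748 (sham) and 92.5 (banded), so its order was turned round there. Of the 6 higher members 1, Ier3, was at least 2-fold above both wild-type arrays, and 3, Nfkbiz, Birc3 and Ier3, were so above wild-type banded alone.

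The start regions of 5 higher genes are shown, 1 example each of a cytokine, a chemokine, an adhesion gene, a feedback gene of gp130 signalling and a metallothionein, chosen with their values and motif matches known. Each is the 250 bases before the annotated start, from RefSeq on GRCm38.p6, written 5′ to 3′ on the gene's strand. Capitals mark every match to kappa-B, AP-1 (TGANTCA), C/EBP (TTGCNNAA) and STAT (TTCNNNGAA) letters and, in Mt2 only, to the metal response core (TGCNCNC). In Il6 (chr5:30012864-30013113, plus strand) the capitals are an AP-1 match (bases -249 to -243), a C/EBP match (-128 to -121) and a kappa-B match (-44 to -35). In Cxcl2 (chr5:90903649-90903898, plus strand) they are 2 overlapping kappa-B matches from -97 to -87. In Icam1 (chr9:21015690-21015939, plus strand) and Socs3 (chr11:117969367-117969616, minus strand) they are a STAT match at -42 to -34 and -154 to -146. In Mt2 (chr8:94172368-94172617, plus strand) they are 5 matches to the metal response core, an AP-1 match (-79 to -73) and a C/EBP match (-12 to -5).
Il6: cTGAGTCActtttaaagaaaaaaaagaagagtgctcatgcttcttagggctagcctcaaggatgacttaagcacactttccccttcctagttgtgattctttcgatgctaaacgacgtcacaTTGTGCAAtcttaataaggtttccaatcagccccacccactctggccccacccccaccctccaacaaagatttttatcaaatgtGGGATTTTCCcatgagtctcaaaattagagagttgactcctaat
Cxcl2: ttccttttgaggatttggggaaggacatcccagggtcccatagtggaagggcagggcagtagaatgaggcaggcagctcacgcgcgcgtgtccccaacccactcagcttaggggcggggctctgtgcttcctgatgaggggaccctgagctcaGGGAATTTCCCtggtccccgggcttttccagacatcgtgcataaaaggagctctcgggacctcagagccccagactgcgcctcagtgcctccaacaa
Icam1: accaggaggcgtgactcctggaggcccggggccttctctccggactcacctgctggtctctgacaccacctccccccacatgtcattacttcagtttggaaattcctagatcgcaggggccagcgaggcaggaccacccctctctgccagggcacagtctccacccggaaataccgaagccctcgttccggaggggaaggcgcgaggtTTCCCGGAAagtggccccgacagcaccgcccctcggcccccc
Socs3: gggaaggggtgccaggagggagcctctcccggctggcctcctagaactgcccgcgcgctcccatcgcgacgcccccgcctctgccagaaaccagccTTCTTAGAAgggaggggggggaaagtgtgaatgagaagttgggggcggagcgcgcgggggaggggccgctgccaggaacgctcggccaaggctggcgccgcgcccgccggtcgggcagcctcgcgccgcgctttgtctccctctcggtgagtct
Mt2: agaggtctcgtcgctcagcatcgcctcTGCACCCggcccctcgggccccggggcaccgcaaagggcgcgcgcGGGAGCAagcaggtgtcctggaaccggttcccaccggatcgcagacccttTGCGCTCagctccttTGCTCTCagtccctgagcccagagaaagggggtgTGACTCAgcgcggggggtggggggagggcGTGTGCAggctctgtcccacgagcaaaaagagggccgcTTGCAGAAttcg

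Motif letters of this kind are common, and a match describes the letters only. All motifs were searched on both strands except TATAAA, which was searched on the gene's strand. Windows were matched by gene identifier for 3950 of the 4827 genes, 250 of the 337 higher and 101 of the 122 lower. The kappa-B letters were in 14.4% of higher, 17.8% of lower and 10.4% of all measured genes with a window, and in 7.25% of all windows in the table. The AP-1 letters were in 10.4% of higher, 5.94% of lower and 5.52% of measured genes (6.75% of all windows). STAT letters were in 9.2%, 4.95% and 6.68% (7.02% of all windows). TATAAA was in 12% of higher, 5.94% of lower and 5.01% of measured genes (7.59% of all windows). For the C/EBP letters the shares were 10%, 6.93% and 9.06% (9.56%), and for the metal response core 56.8%, 62.4% and 57.1% (44.4%). The other motifs searched were CRE (TGACGTCA) with 4%, 1.98% and 3.24% (1.55%), the E-box (CACGTG) with 9.2%, 12.9% and 10.7% (6.02%), the TEAD letters (GGAATG) with 11.2%, 14.9% and 12.9% (12.6%), and the CArG box with 2.8%, 0.99% and 1.82% (1.47%). The heat shock element was in 0 of the 250 higher, 0 of the 101 lower and 20 of the 3950 measured genes (0.466% of all windows). No share was tested against another.

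The next group holds Il6 itself, receptors and signalling genes of its family, and acute-phase and feedback genes. In this group 9 of 21 measured genes passed 2-fold upward and 0 downward, with a median of 0.60, and 6 of the 9 were at least 2-fold above both wild-type arrays (7 above wild-type banded alone). Socs3, the feedback inhibitor of gp130 signalling, was 328 in sham and 5263 in banded (16-fold), against 561 and 189 in wild-type sham and banded. Its 2 other probe sets were higher by 2.17 and 4.95 (log2). Osmr, the receptor chain for oncostatin M, was 161 and 929 (5.78-fold), and 269 and 204 in wild type.

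Further members of the group are acute-phase genes and feedback genes. Cebpd, a transcription factor of the acute phase, was 44.8 in sham and 259 in banded (at least 4.04-fold). Serpina3n, a protease inhibitor of the acute phase, was 43.2 and 279 (at least 4.36-fold), and Fgl2, a membrane prothrombinase, 257.5 and 1066.5 (4.14-fold). Socs2 (1.40) and Stat3 (1.14) passed 2-fold on the probe set used, but their other probe sets gave -0.13 and -0.59. Several ligands and receptors, among them Lif, Il11, Il6ra and Socs1, were below the floor on both arrays.

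Within the IL-18 and IL-1 axis, 2 of 9 measured members passed 2-fold, Il1b and Pycard, and the median was 0.18. Pycard, the adaptor that joins inflammasome sensors to caspase-1, was 89.9 in sham and 252 in banded (2.81-fold). Il1r1, the receptor for IL-1, was 99.5 and 185.5, and Il33, an alarmin of the same family, 18.4 and 115; both stayed under 2-fold after the floor. The genes of the IL-18 receptor, Il18r1 (4.2 and 4.2) and Il18rap (4.2 and 4.2), and the soluble inhibitor Il18bp (17.9 and 30.7), were below the floor. So were Casp1, Nlrp3, Tnf and Ifng.

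Macrophage markers were higher on the same array. Of 18 macrophage markers, 11 reached the floor on 1 or both IL-18 null arrays, 6 were at least 2-fold higher and 0 lower, and their summed intensity was 4812 in sham and 12016 in banded. C1qb, a chain of the complement starter made by macrophages, was 455 and 1902 (4.18-fold), and its other probe sets were higher by 1.83 and 2.13 (log2). Csf1r, the receptor that macrophages depend on, was 810.1 and 1692 (2.09-fold), and Mpeg1, a pore-forming protein of phagocytes, 145 and 544 (3.76-fold). Adgre1 (F4/80) differed by 0.62, and Cd163, Mertk, Ccr2 and Itgam were below the floor. The part of these markers in the cytokine differences was not tested.

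Other leukocytes left less signal. Of the neutrophil markers S100a8 was 119 and 269 and S100a9 369 and 712 on sham and banded. The other 2 measured were Cxcr2, a chemokine receptor, at 277 and 221, and Lcn2, a siderophore-binding protein, at 11.5 and 65.1, while 6 of 10, among them Mpo, Elane and Csf3r, were below the floor. The neutrophil sum was 835 in sham and 1327 in banded. Of 12 T and NK cell markers 11 were below the floor, and Cd4 was 145 and 149. All 7 B cell and all 7 mast cell markers were below the floor on both arrays. Phagocyte genes had 6 of 14 members higher, 0 lower and a median of 0.76, led by Plek, a platelet and leukocyte signalling protein (22.2 to 335, at least 5.23-fold). Cd83, a marker of mature dendritic cells, was 30 in sham and 640.4 in banded (at least 10-fold) and was below the floor on both wild-type arrays.

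Of 8 measured leukocyte adhesion genes 3 were at least 2-fold higher and 0 lower, and their median was 0.41. Icam1, the ligand of leukocyte integrins, was 74.2 in sham and 1088 in banded (14.7-fold), against 83.3 and 271 in wild type. Vcam1 was 241 and 1014 (4.21-fold), but its other measured probe set differed by -0.40. Jam2 (0.47), Icam2 (0.35), Cd47 (0.00) and F11r (-0.39) were within 2-fold, and the selectin genes Sele and Selp were below the floor. Ptgs2, the inducible cyclooxygenase, was 27.6 and 357 (at least 5.58-fold), and Ptger4, a receptor for prostaglandin E2, 43.2 and 230.4 (at least 3.6-fold). Both were the other way round in wild type, where Ptgs2 gave 166 in sham and 21.3 in banded and Ptger4 157 and 39.3. The prostaglandin group had 5 of 8 higher and 0 lower.

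Of 17 measured interferon-response genes 16 lay above 0, 5 passed 2-fold upward and 0 downward, and their median was 0.71. Of all 4827 genes 2964 lay above 0, 6.98% were at least 2-fold higher and only 2.53% lower. Irf1, a transcription factor that both interferons and NF-kappa-B induce, was 288 and 857.5 (2.97-fold), and Ifit2, an antiviral RNA-binding protein, 148 and 343 (2.31-fold). Cxcl10, a T cell attractant, was 31.4 and 273 (at least 4.26-fold), while Cxcl9, which interferon gamma induces, was 110.1 and 129. Mx1, Mx2, Irf7 and Stat2 were below the floor.

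Metallothioneins and genes known to answer glucocorticoids formed a group in which some members were much higher and others lay below 0 without passing 2-fold. Mt2, a metal-binding acute-phase gene, was 573 in sham and 7384 in banded (12.9-fold), and Mt1 4374 and 10997 (2.51-fold). Sgk1, a kinase that salt-regulating steroids induce, was 348 and 1409 (4.05-fold), and Cdkn1a, the cell cycle inhibitor p21, 50.9 and 310.5 (at least 4.85-fold). In all 9 of 19 measured members were higher and 0 lower by 2-fold, with a median of 0.98. The classical steroid targets Klf9 at -0.84, Zbtb16 at -0.84, Hsd11b1 at -0.78 and Tsc22d3 at -0.74 lay below 0 without reaching 2-fold. Fkbp5, another such target, was at 0.75. The antioxidant genes Hmox1 (39.1 to 203, at least 3.17-fold) and Srxn1 (21.5 to 186, at least 2.91-fold) were higher, and Gstm1, a glutathione transferase, was 1360.1 and 605.5.

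Matrix genes were also among the higher ones. Fibrillar collagens and the enzymes that trim and cross-link them had 9 of 17 measured members at least 2-fold higher, 0 lower and a median of 1.37. Col3a1 was 2639.7 in sham and 12737 in banded (4.83-fold), and Col5a2, which nucleates thin fibrils, 227.5 and 1820.2 (8-fold). Lox, the copper enzyme that starts the cross-links, was 14.1 and 448 (at least 7.01-fold) and was below the floor on both wild-type arrays, at 30.7 and 41.4. Loxl1, its relative for elastic fibres, was 108 and 343 (3.18-fold), and Pcolce, which speeds removal of the procollagen end, 572 and 1869 (3.27-fold). Collagen chaperone Serpinh1 was 2230.4 and 2350.0, a difference of 0.07. Wild-type Col3a1 was 2917 in sham and 5960 in banded. In wild type 9 of 17 measured fibrillar collagen and cross-linking genes passed 2-fold upward and 0 downward, with a median of 1.00.

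The median of 17 measured basement membrane and network collagen genes was 1.01, with 9 higher and 0 lower. Col8a1, a short-chain collagen of vessels, was 16.6 and 532.5 (at least 8.32-fold), and Col6a1, a beaded-filament collagen, 547 and 1822 (3.33-fold). The laminin chains Lama2, the one that anchors muscle cells, and Lamb1 were 309 and 838, and 282.5 and 755.5. Lamb1's other measured probe set differed by only 0.45. Wild-type Col8a1 was 12.9 in sham and 307 in banded. For this list 10 of 17 measured genes passed 2-fold upward in wild type and 1 downward, with a median of 1.64. Of the 9 genes higher in IL-18 null 0 were at least 2-fold above both wild-type arrays on the banded IL-18 null array. Only 1, Lamb1, was so above wild-type banded alone. For the 9 higher fibrillar collagen genes these counts were 5 and 5, and for the 10 higher matricellular genes 6 and 8; the difference between the groups was not tested.

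Of 16 measured matricellular and microfibril genes, 10 passed 2-fold upward and 1 downward. Fn1, fibronectin, was 87.1 and 1193.5 (13.7-fold), and Postn, periostin of activated fibroblasts, 851.5 and 8791 (10.3-fold). Thbs4, a thrombospondin of the loaded heart, was 36.8 and 356 (at least 5.56-fold), with 37.8 and 37.1 in wild-type sham and banded. Thbs1 was 97.5 and 331 (3.4-fold), and Eln, the elastin gene, 37.3 and 179 (at least 2.8-fold). The 1 lower member was Ccn1 (2188 to 904), an early gene of the same family as Ccn2 (319 to 2581). Wild-type Postn was 932 in sham and 2188 in banded, and wild-type Fn1 48.7 and 142. Matricellular genes were mixed in wild type, where 5 of 16 measured passed 2-fold upward and 4 downward, with a median of -0.28. Among proteoglycans, Aspn, which binds collagen and TGF-beta, was 138 and 613.5 (4.45-fold), with 301 and 168 in wild type, and its other probe set was higher by 1.40 (log2). Vcan was 70.1 and 292, though its other probe set differed by 0.03.

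Proteases and their inhibitors were spread: 6 of 20 were higher, 1 was lower and the median was 0.46. Timp1, a metalloprotease inhibitor, was 4.1 in sham and 1327 in banded (at least 20.7-fold), with 4.5 and 33.2 in wild-type sham and banded. Timp3 and Timp4, inhibitors of the same family, were at -0.80 and -0.58. Adamts1, a protease that cuts versican, was 211 and 1014 (4.8-fold), and Mmp2, the gelatinase, 154 and 582 (3.77-fold). Adam19, a shedding protease, was the 1 lower member (456 to 159). Mmp3, Mmp8 and Mmp9 were below the floor.

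Fibroblast markers bear on the matrix values. The summed intensity of 15 fibroblast markers was 26530.1 in sham and 40491 in banded, and that of 11 markers of activated fibroblasts 2659.7 and 13665. The collagens are among them. Of the 12 measured fibroblast markers 9 lay above 0 and 3 below, with 5 at least 2-fold higher and 1 lower. The 3 below 0 were Scara5 (394 to 138), the receptor Pdgfra (634 to 354) and Gsn (-0.36), and only Scara5 passed 2-fold. Dpt (0.43) and Dcn (0.28) lay above 0 within 2-fold. Tcf21 and Ddr2 were below the floor on both arrays. Acta2, the actin of myofibroblasts and smooth muscle, differed by 0.33. Mki67, a marker of dividing cells, was 10.8 and 229 (at least 3.58-fold). Cenpf, a kinetochore protein, was 143 and 82.2, and Pcna, the clamp of DNA replication, 1630.2 and 2054, while 13 of 16 genes of the dividing cell list, among them Top2a, Cdk1 and Ccna2, were below the floor. The part of cell number in the matrix differences was not tested.

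Growth and TGF-beta signalling genes were less uniform. The TGF-beta and BMP group had 4 of 17 measured members higher, 0 lower and a median of 0.07. Its ligands Tgfb1, Tgfb2 and Tgfb3 were below the floor, and the 4 higher were Fstl1, Id3, Skil and Id1. Fstl1, a secreted follistatin relative, was 649 and 3726 (5.74-fold) with its other probe set at 2.82 (log2), and Id3, an inhibitor of helix-loop-helix factors, 86.4 and 339 (3.92-fold). Among growth factors 6 of 19 were higher and 0 lower (median 0.54). Igf1 was 283 and 658.5 (2.33-fold), and the EGF receptor ligands Hbegf (35 to 135) and Ereg (10.5 to 132) left the floor. Vegfa, the main endothelial growth factor, was 1395 and 755, a difference of -0.89.

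Genes of the fetal heart programme were high on the banded array, while adult contractile genes lay near the median of all genes. Of 23 measured genes of the fetal and stress programme 11 were at least 2-fold higher and 0 lower, with a median of 0.86. Myh7, the fetal myosin heavy chain, was 473.5 in sham and 4725 in banded (9.98-fold), while Myh6, the adult one, was 33515 and 36866. Nppa, atrial natriuretic peptide, was 2316 and 13126 (5.67-fold), and Acta1, skeletal actin, 2950.1 and 10429.7 (3.54-fold). Of 5 measured atrial markers only Nppa passed 2-fold. Myl7 was 803 and 856, Myl4 660.6 and 770.8, Sln 301.5 and 470.4 and Pam 159.9 and 209.7. The contractile and calcium-handling group had 1 of 21 higher, Casq1 (63.2 to 232, a bound), and 0 lower. Atp2a2, the calcium pump, was 19215 and 16756, and its 3 other probe sets ranged from -1.30 to 0.06. Fetal genes also rose in wild type, where Myh7 was 310 (sham) and 1156 (banded), Nppa 2722 and 7217 and Acta1 142.5 and 10769. There 15 of 26 measured genes of the fetal and stress programme passed 2-fold upward and 0 downward. Wild-type sham, the array that stood apart, enters each of these differences.

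Among cytoskeletal genes 10 of 35 passed 2-fold, 0 were lower and the median was 0.72. Tubb6, a tubulin, was 29.5 and 338 (at least 5.27-fold), Tubb2a 283 and 952 (3.37-fold), and Vim, vimentin, 3788 and 8674 (2.29-fold). Itga5, the fibronectin receptor chain, was 22.4 and 266 (at least 4.15-fold). Uck2, which salvages uridine for RNA synthesis, was 100.3 and 788 (7.86-fold), and Nop56, a ribosome assembly factor, 181 and 427, with 0.10 at its other probe set. The 44 measured ribosome and translation genes had a median of 0.21 with 1 past 2-fold.

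Genes lower in the banded ventricle were fewer, and the heat shock group held the largest of them. Hspa1a, an inducible HSP70, was 1623 in sham and 28.5 in banded (at least 25.4-fold lower), and Hspa1b 5379 and 693 (7.76-fold lower). These are near-identical copies, so their probe sets may share signal. The 2 other probe sets of Hspa1b differed by -5.16 and -3.55 (log2). On the wild-type arrays Hspa1a was 29.2 (sham) and 9.9 (banded) and Hspa1b 212 and 147. The sham IL-18 null array was thus the one that stood high, and the banded one was the nearer to wild type.

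The co-chaperone Dnajb1 had the same order, with 3754 and 993 on the IL-18 null sham and banded arrays and 399 and 504 on the wild-type ones, though its other probe set differed by only -0.17. Hspa4l, an HSP110 relative, was 629.9 and 226 in IL-18 null sham and banded, with 0.01 at its other probe set. Of 35 measured heat shock and co-chaperone genes 5 were lower, 1 higher and the median was -0.11. Hspa8 (0.24), Cryab (-0.06) and Hsp90aa1 (-0.15), abundant chaperones of the heart, were within 2-fold.

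Immediate-early genes split. Of 27 measured, 7 were at least 2-fold higher, 5 lower and the median was 0.49. Lower were Fos (4469 to 1632), Jun (508 to 206), Nr4a1, Ier2 and Ccn1, genes that stimuli switch on within minutes. Higher were Gadd45b (99.4 to 725), Ier5 (90.8 to 636), Atf3 (128 to 720.1), Ier3, Zfp36, Hbegf and Btg1. Jun's other probe set gave -1.32 and that of Ccn1 -2.20. The orphan receptor Nr4a1 had 1357 in IL-18 null sham and 585 in banded, against 433 and 499 in wild type, so that again the sham IL-18 null array was the highest. Of the 5 lower genes 3 were at least 2-fold above both wild-type arrays in IL-18 null sham (4 above wild-type banded alone), and of the 7 higher genes 6 were so in IL-18 null banded (7 above wild-type banded alone).

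**Figure D4:**
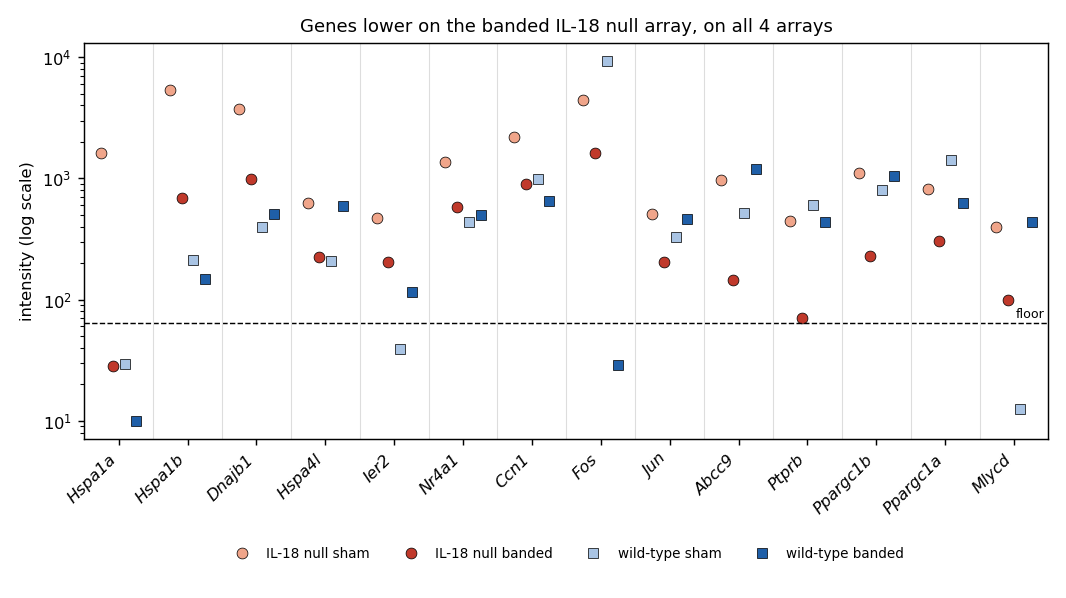
Intensity on a log axis for 14 genes that were lower on the banded than on the sham IL-18 null array, on each of the 4 arrays (circles for IL-18 null, squares for wild type, dark for banded), with the floor of 64 as a dashed line. For Hspa1a, Hspa1b, Dnajb1, Nr4a1 and Ccn1 the sham IL-18 null array is the highest, and for Abcc9, Ptprb, Ppargc1b and Ppargc1a the banded IL-18 null array is the lowest.

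Another set of lower genes stood low on the banded array itself. Ppargc1b, a coactivator of mitochondrial genes, gave 1117 in IL-18 null sham and 229.7 in banded (4.86-fold lower), against 794 and 1049.9 in wild type. Ppargc1a, its relative, was 809 and 303 (2.67-fold lower), with 1413 and 625 in wild type, and its 3 other probe sets ranged from -1.76 to -0.14. Abcc9, the regulatory subunit of the ATP-sensitive potassium channel, was 965 and 145 (6.63-fold lower), with 518 and 1187.5 in wild type. Its pore partner in vessels, Kcnj8, was 121 and 84.4, a difference of -0.52, and no other ion channel of the 12 measured passed 2-fold.

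Most fuel genes were within 2-fold, like most genes, since 9.51% of all 4827 were past it. Fatty acid uptake and oxidation had 0 of 29 measured members higher and 2 lower, and the respiratory chain had 0 of 68 higher and 1 lower. Below 0 were 25 of the 29 fatty acid genes and 16 of 20 citric acid cycle genes. For the respiratory chain it was 35 of 68, and for all genes 1855 of 4827. Mlycd, which breaks down the inhibitor of fatty acid import, was 395 and 99.3 (3.97-fold lower). Acadm, the medium-chain dehydrogenase, differed by -0.31 and Cpt2 by -0.46. Among glucose genes Pfkp, a phosphofructokinase, was 261 and 683 (2.62-fold higher). The glucose transporters differed in direction without passing 2-fold, Slc2a1 at 0.99 and the insulin-responsive Slc2a4 at -0.95. Ogdh, a citric acid cycle enzyme, was 5159.5 and 2285 (2.26-fold lower).

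Of 15 measured endothelial markers 6 lay above 0 and 9 below, with 0 higher and 1 lower by 2-fold and a median of -0.12. Ptprb, a phosphatase that holds endothelial junctions together, was 444 in sham and 71 in banded (6.25-fold lower), against 601 and 434.5 in wild type. Kdr, the receptor for VEGF-A, differed by -0.96 and Emcn, a surface sialomucin, by -0.73, while Cdh5, the junction cadherin, differed by -0.21. Highest was Cldn5, a tight junction protein, at 57 and 126 (at least 1.97-fold). The summed intensity of 20 endothelial markers was 33849 in sham and 30703.5 in banded. Other lower genes with muscle or signalling roles were Rgs2 (611 to 273) and Rgs4 (129.5 to 64.3), brakes on G protein signalling, and the cardiac transcription factor Gata6 (472 to 226). Tns1, an integrin-linked protein, had the largest difference among lower genes measured on both arrays (661 to 74.4), but its other probe set differed by 0.27.

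The place of the IL-18 null arrays against both wild-type arrays was also counted. The 337 and 122 genes were picked on the same IL-18 null values. Larger shares among them than among all genes are therefore partly set by that choice. Of the 337 higher genes, 102 were at least 2-fold above both wild-type arrays on the banded IL-18 null array, and 5 were at least 2-fold below both on the sham array. Over all 5158 genes at or above the floor on any array, 108 (2.09%) and 8 (0.155%) were so placed. Of the 122 lower genes, 12 were at least 2-fold above both wild-type arrays on the sham array (14 of 5158 genes, 0.271%) and 12 at least 2-fold below both on the banded array (19 genes, 0.368%). The first 12 were Hspa1a, Hspa1b, Dnajb1, Tmlhe, Wdr26, AY036118, Stard3nl, Prps1, Ccn1, Nr4a1, Ier2 and Gtf2a1. The second 12 were Tns1, Abcc9, Pja2, Ptprb, Jup, Ppargc1b, Sbno1, Dbt, Ppargc1a, Stard8, Mrpl50 and Thoc2. Both sets were named after their values were seen. Other probe sets of 4 of these genes reached the other side of 0, at 0.24 for Tmlhe, up to 0.09 for Wdr26, 0.27 for Tns1 and up to 0.76 for Sbno1. Against wild-type banded alone, 174 of the 337 higher genes were at least 2-fold above it on the banded IL-18 null array (282 of all 5158, 5.47%), and 71 of the 122 lower genes were at least 2-fold below it (383 of all, 7.43%). The sham IL-18 null array was at least 2-fold above wild-type banded for 20 of the 122 lower genes (66 of all, 1.28%).

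The wild-type comparison had 1743 of 5040 genes past 2-fold (34.6%), 1096 higher (21.7%) and 647 lower (12.8%), and it contains the array that stood apart. Of the 337 genes higher in IL-18 null, 79 were also at least 2-fold higher in wild type (23.4% of the IL-18 null list and 7.21% of the wild-type list), 44 at least 2-fold lower (13.1% and 6.8%) and 184 within 2-fold, and 30 were not measured there. Of the 122 lower genes, 13 were also lower in wild type (10.7% and 2.01%) and 63 higher (51.6% and 5.75%). Genes on the same side included Col1a1, higher by 2.85 in IL-18 null and 2.43 in wild type, and Rcan1, the calcineurin modulator, by 2.48 and 2.28. On opposite sides were Nfkbiz (3.70 and -3.02), Socs3 (4.00 and -1.57) and Klf10, a TGF-beta early gene (2.08 and -1.45). With 1 array a group the difference between genotypes was not tested. Genotype, pool and array cannot be told apart here, nor can a banding time that may have differed.

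**Figure D5:**
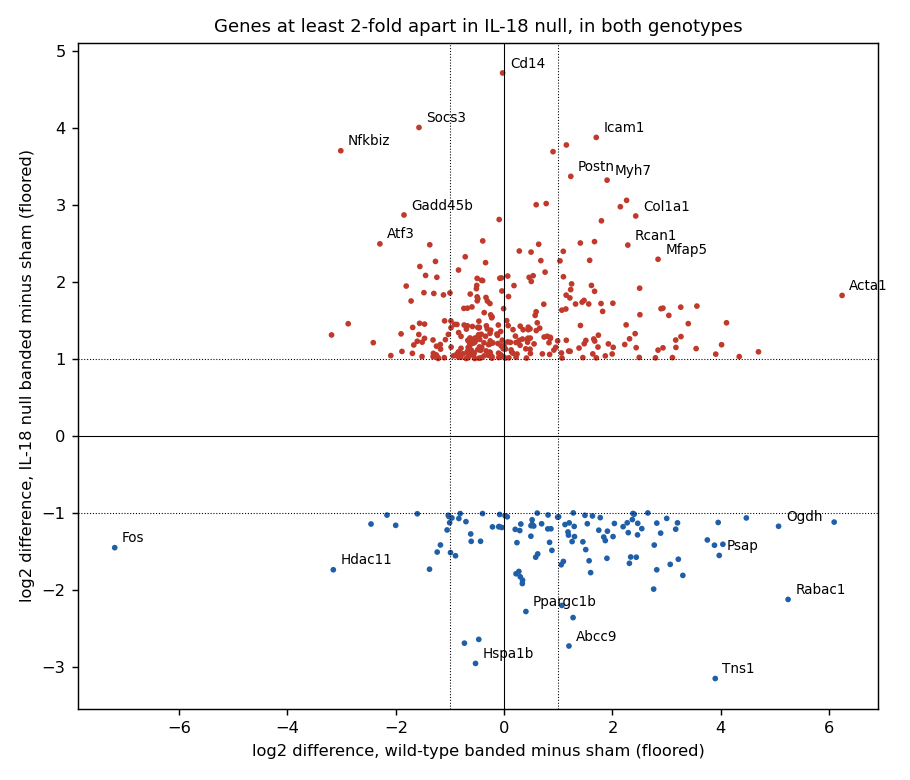
Each point is 1 gene at least 2-fold apart between the banded and sham IL-18 null arrays and measured in wild type, with its wild-type difference (x) and IL-18 null difference (y), both log2. Red points are higher and blue lower in IL-18 null; 79 lie beyond 2-fold in the upper right, 44 in the upper left, 63 in the lower right and 13 in the lower left.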

How the data were processed

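Total RNA of mouse left ventricle was measured on 4 biotin-labelled Affymetrix-type arrays, 1 pool each. The deposited table gives linear intensity for 22690 probe sets, made by the authors with GCRMA per the submitters' processing notes; its version and settings are not given in the sources used here. Probe sets with 1 gene in the platform annotation (20380) were used, and intensities were turned into log2 values with a floor of log2 6. Genes were counted at a 2-fold difference with no test, since there was 1 array per group and no replicate error. Differences of a gene's other probe sets served as the measure of error. Named genes were the largest differences and bounds each way, up to 8 members per gene list, and the genes next to the threshold. Acadm, Btg1, Cpt2, Cryab, Cxcl9, Gtf2a1, Hsd11b1, Hsp90aa1, Hspa8, Ier2, Klf9, Mrpl50, Serpinh1, Stard8, Timp3, Timp4, Tsc22d3 and Zbtb16 were added after their values were seen. The comparison, the gene lists and the rules were chosen with earlier results of these data known. Alternatives were other floors, normalizations (limma 3.58.1), probe set choices and thresholds. Counting was tested on simulated data. Python 3.11.15, pandas 2.3.3 and R 4.3.3 were used.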

Additional observations from a re-analysis of the deposited data

Results flagged for a closer look

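Some genes differed with banding in opposite directions in the 2 genotypes, each difference resting on 1 array against 1 array, so the difference between genotypes was not tested. There were 44 genes at least 2-fold higher in banded IL-18 null and at least 2-fold lower in banded wild type. They were 13.1% of the 337 higher genes, near the 12.8% of all 5040 genes that were lower in wild type. Another 63 had the opposite order, 51.6% of the 122 lower genes, where 21.7% of all 5040 genes were higher in wild type. Wild-type sham, the array that stood apart, enters every one of these. Among genes that were past 2-fold in opposite directions and reached the floor on all 4 arrays, the IL-18 null difference exceeded the wild-type one most for Nfkbiz (by 6.72 on the log2 scale), Socs3 (5.57), Atf3, a stress transcription factor (4.79), Cntd1 (4.33) and Errfi1, an inhibitor of the EGF receptor (3.75). On the other side, among the same genes, the difference of differences was -7.22 for Atp5g2, a subunit of ATP synthase, -7.05 for Tns1, -6.24 for Ogdh, -5.53 for Psap, the precursor of lysosomal saposins, and -5.08 for Hhatl. Ogdh intensity on the IL-18 null arrays was 5159.5 (sham) and 2285 (banded), and on the wild-type arrays 158 (sham) and 5305 (banded).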

How the results depend on the processing

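With 1 array per group no replicate could be left out, and depth does not apply to arrays, whose number limits the precision. No paired analysis was possible because each group is 1 array and the labels give no replicate numbers. The 337 higher genes became 188 with the mean of all probe sets, 219 without shared probe sets, 804 at 1.5-fold and 114 at 3-fold, and the 122 lower genes became 378 at 1.5-fold and 28 at 3-fold. Under the other settings both counts stayed within 1.5 times. The mean of all probe sets left 3686 genes and leaving out shared probe sets 3550, instead of 4827. Of the genes shared with wild type, the 79 higher in both became 51 with the floor at log2 7, 51 after quantile normalization, 214 at 1.5-fold and 20 at 3-fold. The 13 lower in both became 26 after quantile normalization, 3 with the mean of all probe sets, 88 at 1.5-fold and 1 at 3-fold; the cause was not tested. Of 54 lists with 5 or more measured members, 34 had a median above that of all genes, and between 31 and 37 did under the alternatives. Of the 127 genes named above that were past 2-fold, 79 remained so with the mean of all probe sets, where 26 came under 2-fold and 22 had no value, and 97 without shared probe sets, where 23 had no value. The direction turned round without shared probe sets for Hspa4l (0.01), Socs2 (-0.13), Tmlhe (0.24), Tns1 (0.27) and Zbtb20 (0.39), and for Zbtb20 (0.39) also with the probe set highest on the 2 IL-18 null arrays. Equal medians took off a shift of 0.14 (log2) between the IL-18 null arrays, and the median of all genes was then -0.06, against 0.08 as reported, -0.01 after quantile normalization and -0.03 after cyclic loess.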
